A study of Homo sapiens
Mus musculus and Mus musculus and Homo sapiens with 3 samples.

Results

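Neural progenitors in human and mouse motor neuron cultures were divided by their transcripts of OLIG2, the transcription factor that defines motor neuron progenitors. Progenitors without an OLIG2 transcript were then compared with those that held it. The cells were chosen from single-cell counts of unique molecular identifiers (UMIs), each of which marks 1 captured transcript. A gated progenitor held at least 2 UMIs of SOX2, a transcription factor of dividing neural progenitors. It held 0 UMIs of NKX2-2 (a factor of the most ventral progenitors), of STMN2 (a neuronal tubulin-binding protein) and of COL1A2 (a collagen of mesenchyme), and at most 2 of KRT8 (a keratin of simple epithelia). A gated cell with 0 OLIG2 UMIs was called OLIG2-negative and one with at least 2 was called OLIG2-positive. This gave 1259 OLIG2-negative and 1700 OLIG2-positive cells among 3294 gated progenitors, out of 7712 cells that passed the cell filter and 9115 in all.

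Human and mouse pluripotent stem cells had been directed to motor neurons in floating aggregates, and their RNA was read by droplet-based 3' single-cell sequencing in 3 libraries. The induced pluripotent line NCRM1 is human replicate 1, and C57BL/6 embryonic stem cells are mouse replicate 1; both were read in 1 mixed library whose species were deposited apart. Human replicate 2 (RUES1, given in the labels as an induced pluripotent line) and mouse replicate 2 (embryonic stem cells of strain C57BL/6) were libraries of their own. All cells carried a lentiviral barcode with GFP under the CAGGS promoter and were sorted for GFP. Human cultures had been sampled at steps of 48 h and mouse cultures at steps of 24 h. The OLIG2-negative and OLIG2-positive cells of a library thus share line, virus, sort and sequencing run. The files give no sampling day for a cell, so a difference between the sides can also hold a difference in day. The human libraries are of different lines, and the labels do not say whether the mouse libraries are separate cultures, so p-values measure only the spread between these libraries, which may be technical.

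In the ventral spinal cord, Sonic hedgehog from the notochord and floor plate sets up stacked progenitor domains, each marked by its own combination of transcription factors. OLIG2 marks the motor neuron domain, IRX3 and PAX6 mark the domains above it and are repressed or lowered by ventral signals, and NKX6-1 covers the motor neuron domain and both of its neighbours. OLIG2 progenitors induce the proneural factor NEUROG2, leave the cell cycle and switch on the motor neuron factors ISL1, LHX3 and MNX1.

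The sides were unequal in size and differed between libraries. Human replicate 1 held 202 OLIG2-negative and 554 OLIG2-positive progenitors, and human replicate 2 held 51 and 417. Mouse replicate 1 held 343 and 395, and mouse replicate 2 held 663 and 334. The OLIG2-positive share of gated cells was 62.9% (exact Clopper-Pearson 95% interval 59.6 to 66.1) and 82.6% (79.0 to 85.8) in the human libraries. It was 46.7% (43.3 to 50.2) and 31.4% (28.6 to 34.3) in the mouse libraries, so both human shares lay above both mouse shares. Because OLIG2 itself chose the cells, these shares are a description, and the intervals cover counting error only. With every cell thinned at random to 7000 UMIs before the gate, the shares were 47.0%, 52.3%, 21.0% and 20.7% in the same order. The small OLIG2-negative side of human replicate 2, 51 cells with 893514 UMIs, limits the precision of every human value. The other sides held between 2677880 and 23780270 UMIs.

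**Figure D1:**
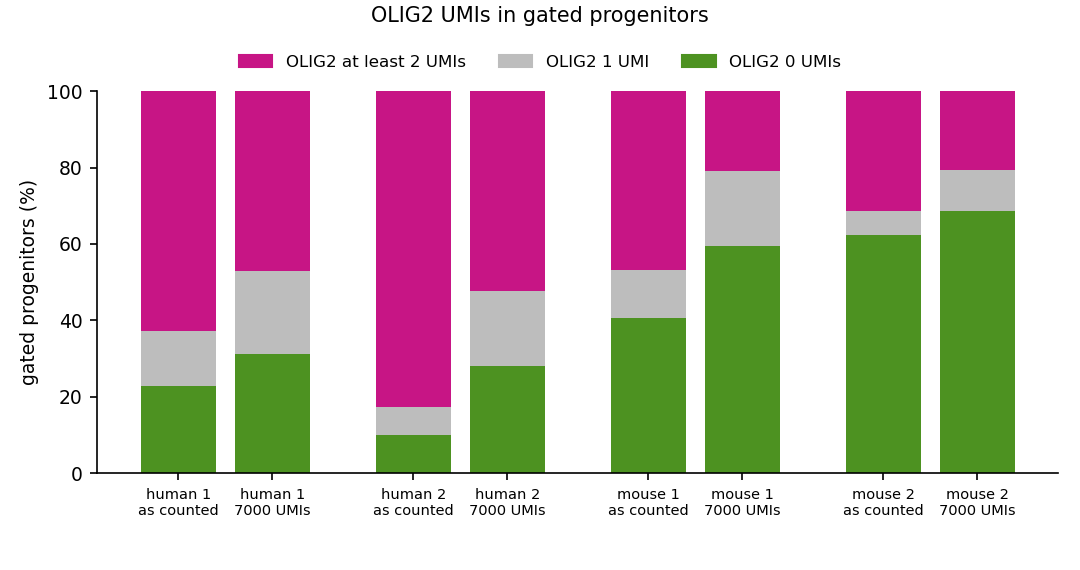
Percentage of gated progenitors with 0, 1 or at least 2 OLIG2 UMIs in each library (1 and 2 are the replicates), as counted and with each cell thinned to 7000 UMIs. As counted, the OLIG2-positive share runs from 31.4% in mouse replicate 2 to 82.6% in human replicate 2, and it is lower after thinning in all 4 libraries.

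OLIG2-positive cells held a median of 4 OLIG2 UMIs in human replicate 1 and in mouse replicate 1, 6 in human replicate 2 and 7 in mouse replicate 2. As a summed level, OLIG2 stood at 398 and 372 CPM (UMIs of the gene per 1000000 UMIs of the summed cells) in the human OLIG2-positive cells, and at 231 and 272 CPM in the mouse ones. SOX2, the other gate gene with a lower limit, was at 367 CPM on the OLIG2-negative and 472 CPM on the OLIG2-positive side of human replicate 1, and at 547 and 501 CPM in human replicate 2. The mouse value was 213 CPM on both sides of replicate 1, and 167 and 177 CPM in replicate 2. Median depth was 13503.5 UMIs per OLIG2-negative and 12970 per OLIG2-positive cell in human replicate 1, and 21619 and 22206 in human replicate 2. It was 24778 and 22693 in mouse replicate 1, and 39193 and 32059.5 in mouse replicate 2, where the OLIG2-negative cells were the deeper ones. A cell with 0 OLIG2 UMIs can still express OLIG2 below detection at these depths.

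Cells with exactly 1 OLIG2 UMI (125, 37, 107 and 66 in the order given above) were left out of both sides. Their IRX3 level lay between that of the sides in 3 libraries. In human replicate 1, IRX3 was at 69.8 CPM in cells with 0 OLIG2 UMIs, 34.0 CPM with 1 and 22.7 CPM with 2. In mouse replicate 1 it was at 126, 75.4 and 46.6 CPM, and in mouse replicate 2 at 94.2, 60.0 and 41.2 CPM. In human replicate 2, with 37 cells of 1 UMI, the values were 60.4, 14.3 and 25.3 CPM. NEUROG2 was highest in cells with over 10 OLIG2 UMIs in every library, where the human values were 292 and 227 CPM and the mouse values 187 and 191 CPM. Over 0, 1 and 2 OLIG2 UMIs it rose in human, at 49.3, 81.9 and 87.1 CPM in replicate 1 and 68.3, 94.0 and 129 CPM in replicate 2. In mouse replicate 1 it fell over these counts, at 63.2, 58.0 and 37.6 CPM. Mouse replicate 2 had 27.5, 13.2 and 50.2 CPM.

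**Figure D2:**
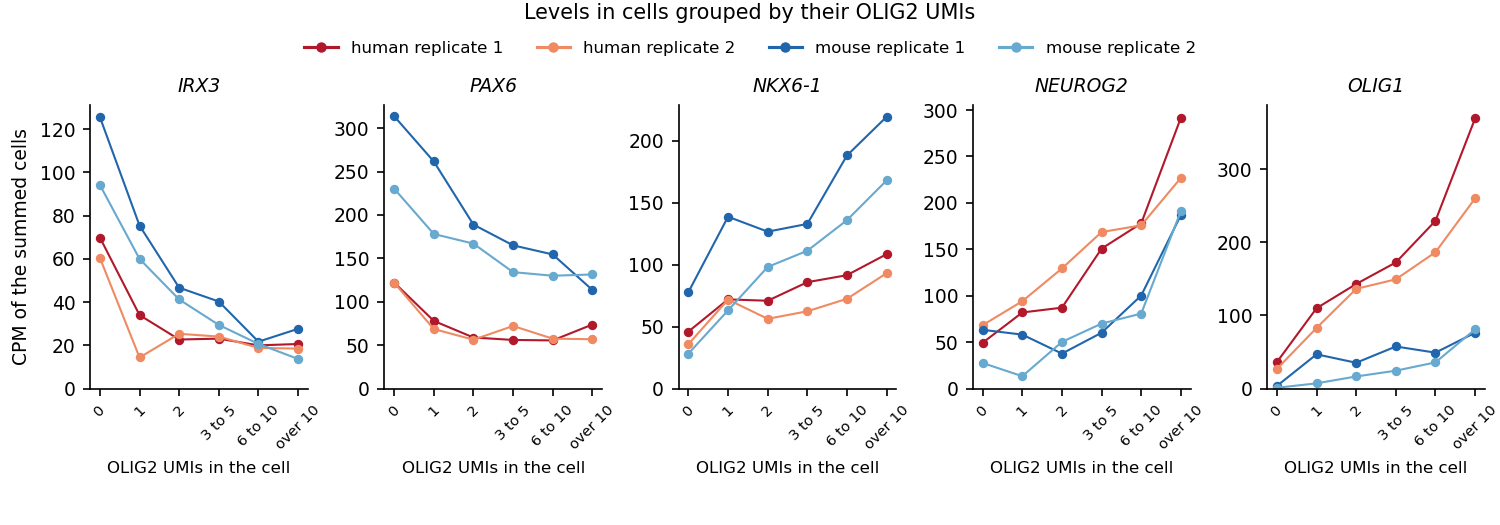
Level of 5 genes (CPM, linear axes) in gated progenitors grouped by the OLIG2 UMIs of the cell, 1 line per library. IRX3 and PAX6 are highest at 0 OLIG2 UMIs, and NEUROG2 and OLIG1 are highest in cells with over 10.

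Counts were summed over the cells of each side in each library, and 11117 genes were tested with edgeR's quasi-likelihood method with the library as a block. Both species entered the same fit, so the spread of a gene was estimated over the libraries of both. A standard error or p-value for human thus also reflects how far the mouse libraries disagreed, and the reverse. A change is OLIG2-negative minus OLIG2-positive on the log2 scale, given with its standard error (SE), and a gene passed at a Benjamini-Hochberg adjusted p under 0.05. In human, 161 genes passed (1.45% of those tested), of which 65 were higher (0.585%) and 96 lower (0.864%) on the OLIG2-negative side. In mouse, 232 passed (2.09%), 120 higher (1.08%) and 112 lower (1.01%). With DESeq2 size factors in edgeR, 65.1% of the human calls were higher in place of 40.4%. Without mouse replicate 2 the mouse count was 86, and without human replicate 1, human replicate 2 or mouse replicate 1 it was 584, 466 or 365. The human count without each library in the same order (human 1, human 2, mouse 1, mouse 2) was 282, 255, 339 and 312. Of the genes higher on the OLIG2-negative side, 19 passed in both species (29.2% of the human and 15.8% of the mouse genes), and of those lower, 11 did (11.5% and 9.82%). In opposite directions, 4 genes passed as higher in human and lower in mouse, and 1 as lower in human and higher in mouse.

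**Figure D3:**
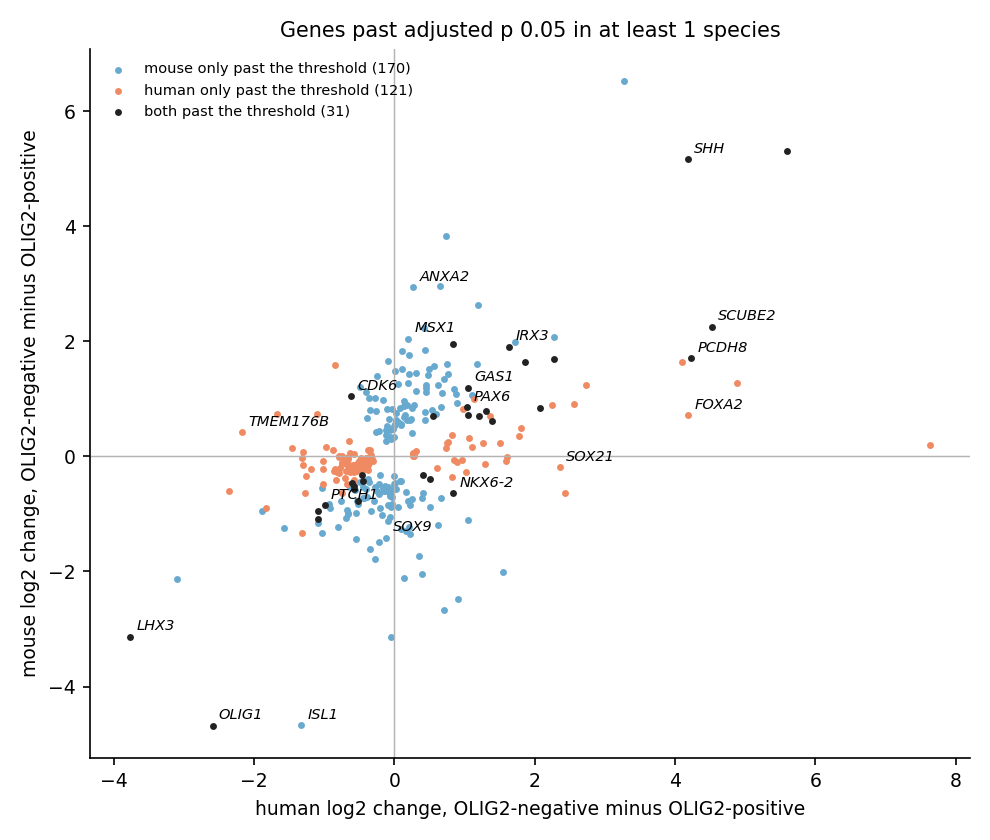
Change between the sides in human (x axis) and mouse (y axis), both log2 OLIG2-negative minus OLIG2-positive, for genes past adjusted p 0.05 in at least 1 species with at least 20 UMIs in each, which leaves out 36 genes. The 31 black points passed in both species, in the same or in opposite directions. IRX3, PAX6 and GAS1 lie at the upper right and OLIG1, LHX3 and PTCH1 at the lower left, while NKX6-2 lies at the lower right and CDK6 at the upper left.

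IRX3, an Iroquois homeobox factor of the domains above the motor neuron domain, was several times higher in OLIG2-negative progenitors of both species. It stood at 69.8 CPM on the OLIG2-negative and 21.9 CPM on the OLIG2-positive side in human replicate 1, and at 60.4 and 20.8 CPM in human replicate 2. In mouse it stood at 126 and 35.6 CPM in replicate 1, and at 94.2 and 23.8 CPM in replicate 2. No OLIG2-positive value reached any OLIG2-negative one, across libraries and species. The change was 1.63 ± 0.14 (SE, n = 2 libraries; edgeR adjusted p = 4.8e-05) in human and 1.91 ± 0.11 (n = 2; edgeR adjusted p = 3.5e-07) in mouse. The human change was 1.13 (edgeR adjusted p = 0.14) once cells with a NEUROG2 UMI were left out. IRX3 is on chromosome 16 in human (54283304 to 54286787, GRCh38) and on chromosome 8 in mouse (91798525 to 91802067, GRCm38).

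PAX6, a paired-box factor that is graded from high dorsally to low ventrally in the cord, was at 122 CPM on the OLIG2-negative and 58.6 CPM on the OLIG2-positive side of human replicate 1, and at 122 and 61.6 CPM in human replicate 2. In mouse it was at 314 and 164 CPM in replicate 1 and at 230 and 136 CPM in replicate 2. The sides did not overlap within a species. The changes were 1.04 ± 0.10 in human (edgeR adjusted p = 0.00015) and 0.85 ± 0.08 in mouse (edgeR adjusted p = 2.9e-05), and each passed under every leave-one-library-out fit. PAX6 is on human chromosome 11 (31789026 to 31817961, GRCh38) and mouse chromosome 2 (105668900 to 105697364, GRCm38).

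At 7000 UMIs per cell, IRX3 was detected in 31.2% (63 of 202 cells, exact 95% interval 24.9 to 38.1) of OLIG2-negative and 9.03% (6.77 to 11.7) of OLIG2-positive cells of human replicate 1. In human replicate 2 the shares were 23.5% (12.8 to 37.5) and 10.1% (7.36 to 13.4), in mouse replicate 1 42.6% (37.3 to 48.0) and 13.7% (10.4 to 17.5), and in mouse replicate 2 38.0% (34.3 to 41.8) and 9.58% (6.65 to 13.3). Without thinning the OLIG2-negative shares were 47.5%, 37.3%, 71.7% and 75.3%, and the OLIG2-positive ones 17.1%, 26.6%, 37.2% and 28.4%. Neurons with at least 10 STMN2 UMIs were taken as a background for free RNA, though some of their lineages keep IRX3. They had an IRX3 UMI in 20.6% to 26.3% of cells at 7000 UMIs, above every OLIG2-positive progenitor share. In human the neuron intervals (21.6 to 31.6 and 16.5 to 25.2) overlapped those of OLIG2-negative cells. The mouse OLIG2-negative intervals lay above those of the neurons (17.5 to 31.0 and 21.7 to 29.8). Median depths of the neurons were 10181, 17013, 14797 and 23619 UMIs, below those of the progenitors. PAX6 separated the sides less by share of cells. It was detected in 42.1%, 31.4%, 74.1% and 67.6% of OLIG2-negative and 25.1%, 28.3%, 56.7% and 53.0% of OLIG2-positive cells at 7000 UMIs. In STMN2-high neurons the PAX6 share was 10.8%, 4.74%, 23.8% and 11.9%. In human replicate 2 the PAX6 intervals of the sides overlapped (19.1 to 45.9 and 24.0 to 32.9).

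**Figure D4:**
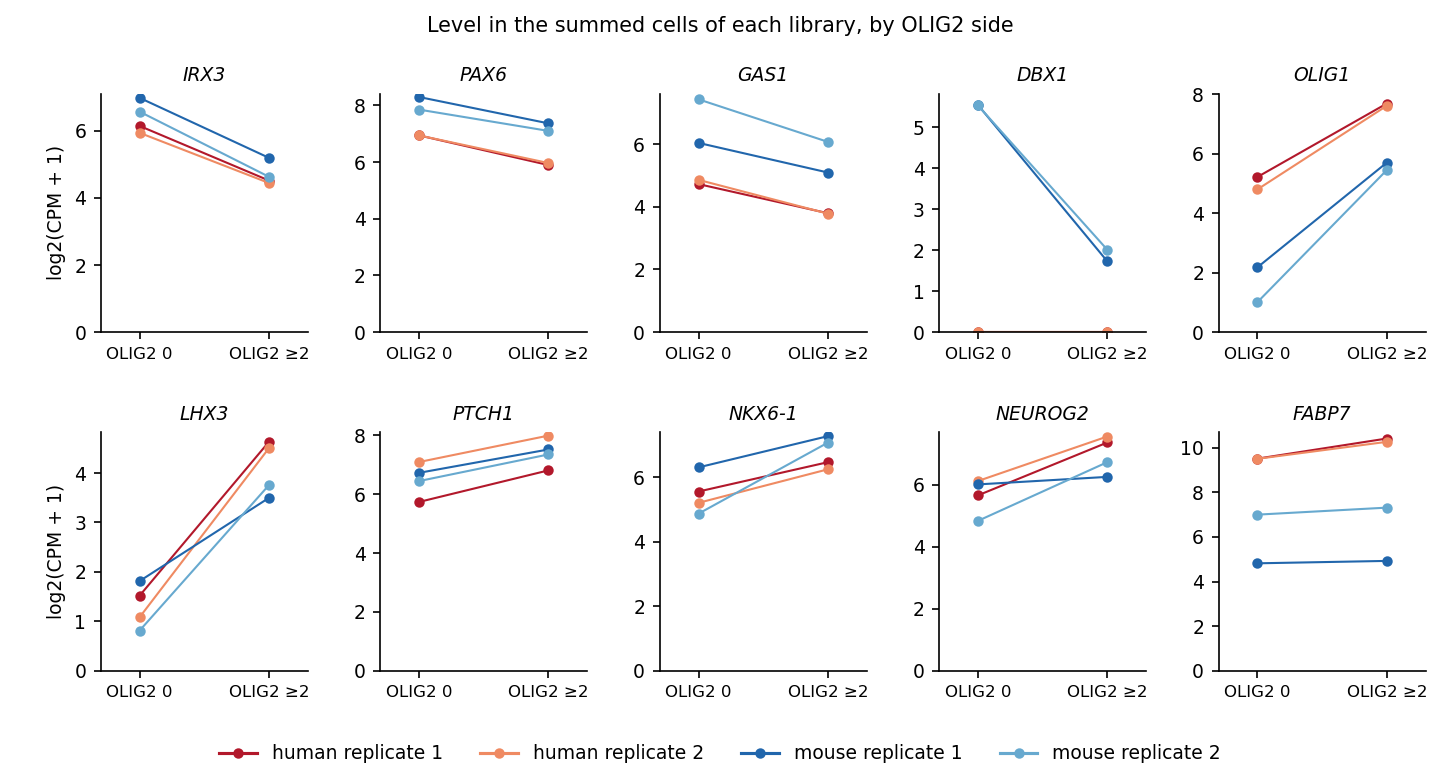
Level of 10 genes, as log2(CPM + 1), on the OLIG2-negative (0 UMIs) and OLIG2-positive (at least 2 UMIs) side of each library, with a line joining the sides of 1 library. IRX3, PAX6 and GAS1 fall and OLIG1, LHX3 and PTCH1 climb from left to right in all 4 libraries, while DBX1 is at 0 in both human libraries.

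A list of 30 dorsal and intermediate domain factors had 18 tested members. Of these, 3 were higher and 0 lower in human OLIG2-negative cells, beside 0.585% and 0.864% of all genes. In mouse 9 were higher and 0 lower (5 higher by DESeq2), beside 1.08% and 1.01%. The list's median change was 0.22 in human, beside -0.05 over all genes tested, and 1.67 in mouse, beside 0. The mouse set was led by DBX1, a factor of the p0 domain, at 45.8 CPM on the OLIG2-negative and 2.31 CPM on the OLIG2-positive side of replicate 1, and at 45.5 and 3.03 CPM in replicate 2. Its mouse change was 4.08 ± 0.19 (edgeR adjusted p = 2.0e-07), while DESeq2 gave the same direction at 4.13 with an adjusted p of 1. No DBX1 UMI was counted on either side in human. DBX1 UMIs lay in 57 of 343 OLIG2-negative cells of mouse replicate 1 and 261 of 663 of mouse replicate 2, so several cells carried the signal in each. DBX1 or DBX2 was detected at 7000 UMIs in 12.8% (9.48 to 16.8) of OLIG2-negative cells in mouse replicate 1. In human, 3 of 202 and 0 of 51 OLIG2-negative cells held a UMI of either gene at that depth. For the latter, a count of 0 allows a share of up to 5.88%.

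The other mouse members that rose in OLIG2-negative cells were DBX2 (2.10 ± 0.33), PRDM12 (3.49 ± 0.43), which acts in the p1 domain, IRX5 (1.44 ± 0.13), the dorsal factors MSX1 (2.05 ± 0.21) and ZIC1 (2.39 ± 0.43), and BHLHE22. PRDM12 had no UMI in human. IRX5 stood at 69.4 and 42.3 CPM on the mouse OLIG2-negative sides against 23.4 and 17.3 CPM, and at 4.85 and 19.0 CPM against 3.65 and 17.6 CPM in human (edgeR adjusted p = 0.85). MSX1 and ZIC1 were mostly in mouse replicate 2, with 1018 and 394 UMIs on its OLIG2-negative side against 23 and 10 in replicate 1. Without mouse replicate 2, the MSX1 change was 1.48 (edgeR adjusted p = 0.44). BHLHE22 was at 10.5 and 3.74 CPM in mouse OLIG2-negative cells with 3 UMIs in all mouse OLIG2-positive cells, a ratio of 34.1 (exact 95% counting interval 11.5 to 167). In human, BHLHE22 rested on 21 UMIs in 3 cells of replicate 1, 14 of them in 1 cell. Among members that did not pass in either species, IRX2 was the most abundant in human. It was at 20.5 and 88.4 CPM on the OLIG2-negative and 18.9 and 93.1 CPM on the OLIG2-positive sides. PAX3, a dorsal factor, had too few UMIs for the test. It had 125 UMIs in OLIG2-negative cells of mouse replicate 2 and at most 2 in each other sum.

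OLIG1, the neighbour and close relative of OLIG2, fell the most of the ventral factors in mouse. It was at 36.2 CPM on the OLIG2-negative and 205 CPM on the OLIG2-positive side of human replicate 1, and at 26.9 and 195 CPM in human replicate 2. Mouse OLIG1 was at 3.53 and 51.0 CPM, and at 1.01 and 42.7 CPM. The sides were far apart in every library, and the mouse OLIG2-negative values lay below all others. The change was -2.59 ± 0.27 in human (edgeR adjusted p = 0.019) and -4.68 ± 0.31 in mouse (edgeR adjusted p = 0.0021), and the difference between species did not pass (2.09 ± 0.47, edgeR adjusted p = 0.25). Without either human library the adjusted p of the human change was 0.46 (replicate 1 left out) and 0.37 (replicate 2 left out), and of the mouse change 0.19 and 0.12. In size the human change was -2.92 without human replicate 1 and -2.44 without human replicate 2. With each species fitted alone, both passed, human at -2.54 (edgeR adjusted p = 4.9e-56) and mouse at -4.66 (edgeR adjusted p = 0.029). Without NEUROG2 cells the human change was -2.23 (edgeR adjusted p = 0.15). OLIG1 was detected at 7000 UMIs in 19.3% and 17.6% of human OLIG2-negative cells, below the 20.6% and 19.2% of STMN2-high neurons. In mouse OLIG2-negative cells its shares of 2.33% and 0.452% lay below the 3.66% and 1.07% of neurons. OLIG1 lies on chromosome 21 in human (33070141 to 33072413, GRCh38) and on chromosome 16 in mouse (91269772 to 91271933, GRCm38), 40955 and 41094 bases from OLIG2.

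NKX6-1, the homeobox factor shared by the motor neuron domain and its neighbours, was lower on the OLIG2-negative side of every library without passing the test. It was at 45.9 and 87.1 CPM in human replicate 1, 35.8 and 74.6 CPM in human replicate 2, 77.8 and 153 CPM in mouse replicate 1, and 28.2 and 133 CPM in mouse replicate 2 (OLIG2-negative first). The changes were -0.94 ± 0.58 (edgeR adjusted p = 0.68) and -1.60 ± 0.42 (edgeR adjusted p = 0.38). The human change passed where the human libraries were fitted alone (-0.90, edgeR adjusted p = 1.1e-05) and not by DESeq2 (adjusted p = 0.15). The mouse change passed with DESeq2 (-1.59, adjusted p = 7.1e-05) and not with mouse fitted alone (edgeR adjusted p = 0.52). After thinning, NKX6-1 passed in mouse (-1.22, edgeR adjusted p = 1.3e-12) and not in human (-0.47, edgeR adjusted p = 0.16). The mouse change was -2.24 without mouse replicate 1 and -0.96 without mouse replicate 2. At 7000 UMIs, 22.3% and 13.7% of human and 30.3% and 34.2% of mouse OLIG2-negative cells held IRX3 without NKX6-1. The same combination was in 5.05%, 5.52%, 7.34% and 5.69% of OLIG2-positive cells. The reverse, NKX6-1 without IRX3, was in 39.9%, 30.2%, 47.8% and 51.2% of OLIG2-positive cells and in 17.8%, 17.6%, 18.7% and 9.20% of OLIG2-negative cells. In human replicate 2, 9 of 51 OLIG2-negative cells held NKX6-1 without IRX3, and 7 held IRX3 without NKX6-1. A UMI of neither gene was held by 51.0%, 58.8%, 38.8% and 52.8% of OLIG2-negative cells at that depth, so most cells on this side in 3 libraries were not placed by either gene.

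NKX6-2, a relative of NKX6-1 that is also found in intermediate domains, changed in opposite directions. In human it was higher in OLIG2-negative cells, at 7.84 and 6.22 CPM in replicate 1 and at 68.3 and 32.5 CPM in replicate 2 (0.84 ± 0.19, edgeR adjusted p = 0.048). In mouse it was lower, at 107 and 158 CPM and at 32.8 and 54.4 CPM (-0.64 ± 0.11, edgeR adjusted p = 0.0054). The difference between species passed (1.48 ± 0.22, edgeR adjusted p = 0.013). The human replicates stood far apart in level, and without human replicate 2 the human change was 0.40 (edgeR adjusted p = 0.77). The mouse change was -0.55 without mouse replicate 2 (edgeR adjusted p = 0.27) and -0.62 by DESeq2 (adjusted p = 0.16). The sign turned in human without NEUROG2 cells (-0.38) and in mouse after thinning (0.19).

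Of genes of the floor plate, the ventral midline that secretes SHH, SHH and FOXA2 were higher on the OLIG2-negative side in human, and SHH in mouse. SHH, the ligand itself, had 0 UMIs in human replicate 1 and was at 34.7 CPM on the OLIG2-negative and 1.82 CPM on the OLIG2-positive side of human replicate 2. In mouse it was at 1.89 and 2.78 CPM in OLIG2-negative cells, with 1 UMI in all OLIG2-positive cells, a ratio of 48.2 (exact 95% counting interval 8.41 to 1926). It passed in human (edgeR adjusted p = 0.0055) and in mouse (edgeR adjusted p = 0.0047). The human SHH UMIs on the OLIG2-negative side, 31 in all, came from 7 cells. FOXA2, a floor plate regulator, was at 23.5 and 1.25 CPM in human replicate 2 (OLIG2-negative first), with 1 UMI in human replicate 1. In mouse it was at 8.06 and 5.32 CPM and at 5.59 and 3.13 CPM. It passed in human (4.19 ± 0.55, edgeR adjusted p = 0.0020) and not in mouse (0.72 ± 0.27, edgeR adjusted p = 0.25). Cells with a UMI of FOXA2 or SHH made up 1 of 202, 10 of 51, 30 of 343 and 74 of 663 OLIG2-negative cells, and 0 of 554, 13 of 417, 29 of 395 and 19 of 334 OLIG2-positive cells. In human replicate 2 that is 19.6% (9.82 to 33.1) against 3.12% (1.67 to 5.27). Leaving these cells out, an alternative chosen after seeing the data, gave 226 human and 416 mouse calls and kept IRX3 and PAX6 past the threshold in both species. Of 7 tested floor plate and roof plate markers, 3 were higher and 0 lower in human, beside 0.585% and 0.864% of all genes. In mouse 4 of these markers were higher and 0 lower, beside 1.08% and 1.01%. Their sums ran the other way in human, at 167 and 271 CPM and at 505 and 827 CPM (OLIG2-negative first), with CAMK2N1 at 109 and 224 CPM and at 335 and 737 CPM. In mouse the sums were 82.1 and 75.6 CPM and 109 and 65.2 CPM. Without human replicate 2, edgeR called 0 of 8 in human, with 3 at an unadjusted p under 0.05, and DESeq2 called 0 of 7 higher and 1 lower. With human fitted alone 3 could be tested, of which 0 were higher and 1 lower, and without mouse replicate 2 the mouse count was 2. Of all 11 tested ventral domain factors, 4 were higher and 2 lower in human, beside 0.585% and 0.864% of all genes. In mouse 3 were higher and 3 lower, beside 1.08% and 1.01%. Without human replicate 2, edgeR called 0 of 12 in human, with 5 at an unadjusted p under 0.05. By DESeq2 the human counts were 1 higher and 1 lower of 11, and with human fitted alone 1 higher and 4 lower of 7.

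Among Sonic hedgehog pathway genes, a receptor and a co-receptor changed in both species. PTCH1, the receptor that pathway activity itself induces, was at 52.3 CPM in OLIG2-negative and 111 CPM in OLIG2-positive cells of human replicate 1, and at 135 and 253 CPM in human replicate 2. Mouse PTCH1 was at 105 and 182 CPM and at 86.1 and 162 CPM. Each OLIG2-negative value lay well under its partner of the same library, by -0.99 ± 0.10 in human (edgeR adjusted p = 0.00015) and -0.85 ± 0.08 in mouse (edgeR adjusted p = 2.9e-05). GAS1, a co-receptor that is itself repressed by pathway activity, moved the opposite way. It was at 25.4 and 12.9 CPM, 28.0 and 12.7 CPM, 64.6 and 33.1 CPM, and 171 and 66.1 CPM in the 4 libraries, OLIG2-negative first, and thus higher on that side in all of them. Its changes were 1.06 ± 0.19 (edgeR adjusted p = 0.017) and 1.20 ± 0.11 (edgeR adjusted p = 3.9e-05). The human GAS1 change did not pass after thinning (0.84, edgeR adjusted p = 0.14) or without human replicate 1 (edgeR adjusted p = 0.067). Of 16 tested pathway members, 1 was higher and 1 lower in human, beside 0.585% and 0.864% of all genes. In mouse 3 were higher and 1 lower, beside 1.08% and 1.01%. The 2 further mouse genes were the co-receptor CDON (1.56 ± 0.33) and GLI3 (0.84 ± 0.15), the main repressor among the GLI factors. Neither passed without mouse replicate 2 (edgeR adjusted p = 0.87 and 0.72) or by DESeq2 (adjusted p = 1.00 and 0.51), and CDON did not without mouse replicate 1 (edgeR adjusted p = 0.13). GLI1, the transcriptional target and effector of the pathway, was at 4.85 and 14.6 CPM and at 6.72 and 12.4 CPM in human (-1.34 ± 0.32, edgeR adjusted p = 0.060), and did not pass in mouse either (-0.30 ± 0.15, edgeR adjusted p = 0.46). SCUBE2, a secreted protein that helps release SHH, was higher in OLIG2-negative cells of both species (4.53 ± 0.71 in human, edgeR adjusted p = 0.0074, and 2.25 ± 0.35 in mouse, edgeR adjusted p = 0.0031). The human SCUBE2 call rested on few UMIs, 26 on the OLIG2-negative and 2 on the OLIG2-positive side of replicate 1, and 2 on each side of replicate 2. In mouse the UMIs were 93 and 13 in replicate 1 and 154 and 21 in replicate 2.

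A list of proneural genes, which start neuronal differentiation, and of related factors was mostly lower in human OLIG2-negative cells. Of 20 tested, 16 lay lower in both human libraries, beside 3755 of 11117 over all genes, and the median change was -1.40. Only 2 of the 20 passed in human, both lower, beside 0.864% of all genes. They were the SOX factor SOX4 (-0.59 ± 0.08, edgeR adjusted p = 0.0049) and the corepressor CBFA2T2 (-1.18 ± 0.25, edgeR adjusted p = 0.034). NEUROG2, the proneural factor of motor neuron progenitors, was at 49.3 and 163 CPM in human replicate 1, and at 68.3 and 186 CPM in human replicate 2 (OLIG2-negative first). It was at 63.2 and 75.0 CPM in mouse replicate 1 and at 27.5 and 105 CPM in mouse replicate 2. The sides of mouse replicate 1 were thus close, while those of the other 3 libraries were more than 2-fold apart. It did not pass in the fit over all libraries (-1.60 ± 0.70, edgeR adjusted p = 0.58, and -1.12 ± 0.58, edgeR adjusted p = 0.65). It passed in human by DESeq2 (-1.51, adjusted p = 0.0031) and with human fitted alone (-1.54, edgeR adjusted p = 3.5e-24). In mouse it passed neither by DESeq2 (adjusted p = 0.22) nor with mouse fitted alone (edgeR adjusted p = 0.69). After thinning NEUROG2 passed in both species (-1.47 in human, edgeR adjusted p = 7.9e-21, and -1.71 in mouse, edgeR adjusted p = 1.0e-19). The mouse change was -1.93 without mouse replicate 1 and -0.23 without mouse replicate 2. The Notch ligand DLL1 was at 44.4 and 72.1 CPM, 32.5 and 94.1 CPM, 37.2 and 36.0 CPM, and 18.7 and 56.5 CPM, again with close sides only in mouse replicate 1. Without mouse replicate 1, 10 of 20 proneural genes were lower in human and 13 in mouse past the threshold, and without mouse replicate 2 the counts were 10 and 0.

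In mouse, the only called member of the proneural list was SOX4 (-0.46 ± 0.08, edgeR adjusted p = 0.010). Motor neuron markers, with STMN2-containing cells already removed, lay lower in mouse OLIG2-negative cells. Of 7 tested, 3 passed as lower in mouse, beside 1.01% of all genes, and the median was -1.80. In both mouse libraries 7 of 7 were lower, beside 3334 of 11117 over all genes. In human 1 passed as lower, beside 0.864% of all genes, with library medians of -0.94 and 0.20. In both human libraries 2 of 7 were lower, beside 3755 of 11117 over all genes. LHX3, a LIM homeobox factor of motor neurons and V2 interneurons, was at 1.87 and 23.8 CPM, 1.12 and 21.7 CPM, 2.52 and 10.3 CPM, and 0.757 and 12.5 CPM, lower on the OLIG2-negative side throughout. It passed in human (-3.76 ± 0.62, edgeR adjusted p = 0.027) and in mouse (-3.13 ± 0.39, edgeR adjusted p = 0.0042), and in neither once NEUROG2 cells were left out (-1.26 in both, edgeR adjusted p = 0.79 and 0.39). With each species fitted alone, LHX3 passed in human (-3.70, edgeR adjusted p = 9.2e-15) and not in mouse (-3.12, edgeR adjusted p = 0.052). Without human replicate 1 or 2, the adjusted p of the LHX3 change was 0.41 and 0.27 in human and 0.078 and 0.063 in mouse. ISL1, an early motor neuron factor, was at 0.630 and 10.9 CPM and at 1.35 and 37.9 CPM in mouse (-4.67 ± 0.28, edgeR adjusted p = 5.7e-07). Together the 11 motor neuron markers of the files summed to 8.22 and 33.3 CPM, 13.4 and 33.1 CPM, 13.6 and 43.6 CPM, and 8.33 and 69.5 CPM. Their part in the other changes was not tested.

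Some V0 to V3 interneuron markers were higher on the OLIG2-negative side in mouse. There 5 of 7 tested were higher in both libraries and 1 was lower in both, beside 3398 and 3334 of 11117 over all genes. In human 1 of the 7 was higher and 1 lower in both libraries, beside 2340 and 3755 of 11117. The human call, BHLHE22, rested on 21 UMIs in 3 OLIG2-negative cells of replicate 1, with none on either side of replicate 2. The 22 genes of the files summed to 47.6 and 10.3 CPM in mouse replicate 1 and to 31.2 and 16.1 CPM in mouse replicate 2 (OLIG2-negative first), and to 31.7 and 8.12 CPM and 11.2 and 8.86 CPM in human. In OLIG2-negative cells of human replicate 1, 17.9 CPM of that sum were VSX1, which had too few UMIs to test. Of 7 tested, 2 passed as higher in mouse, beside 1.08% of all genes. They were BHLHE22 and FOXD3, a V1 factor with 93 UMIs in OLIG2-negative and 3 in OLIG2-positive cells (ratio 18.4, exact 95% counting interval 6.12 to 91.0). EN1, a further V1 factor, had too few UMIs to test, with 29 in OLIG2-negative cells of mouse replicate 1, 1 in those of mouse replicate 2, and 0 in the OLIG2-positive cells of both. EVX1, a V0 factor, had 0 UMIs in all 8 sums. FOXD3 is also a neural crest gene.

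Genes of the G2 and M phases were lower in human OLIG2-negative progenitors. Of 45 tested, 18 fell in human and 0 rose, beside 0.864% and 0.585% of all genes. In both human libraries 42 of 45 lay lower, beside 3755 of 11117 over all genes. In mouse, edgeR called 0 of 45, DESeq2 also 0, and 9 were at an unadjusted p under 0.05 in edgeR. In both mouse libraries 25 lay lower, beside 3334 of 11117 over all genes. The median change was -0.51 in human and -0.13 in mouse. TOP2A, which untangles DNA before division, was at 203 and 297 CPM and at 231 and 364 CPM in human (-0.58 ± 0.08, edgeR adjusted p = 0.0031). CENPF, a kinetochore protein, was at 233 and 335 CPM and at 410 and 635 CPM (-0.57 ± 0.09, edgeR adjusted p = 0.0099). CCNB1, the mitotic cyclin, was at 117 and 161 CPM and at 160 and 264 CPM (-0.57 ± 0.12, edgeR adjusted p = 0.037). HMGB2, the most abundant member, did not pass (-0.31 ± 0.08, edgeR adjusted p = 0.087). The difference between species passed for 0 of the 45 by edgeR, with 24 at an unadjusted p under 0.05. The human count was 0 of 45 with cells thinned to 7000 UMIs before the gate (median -0.13) and 0 of 45 without NEUROG2 cells (median -0.21), 7 without human replicate 2, 8 by DESeq2 and 11 with DESeq2 size factors. Of 33 tested S phase genes, edgeR called 0 in human, with 4 at an unadjusted p under 0.05. In mouse 2, UNG and CCNE1, were higher (0.40 ± 0.09 and 0.43 ± 0.10), beside 1.08% of all genes.

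**Figure D5:**
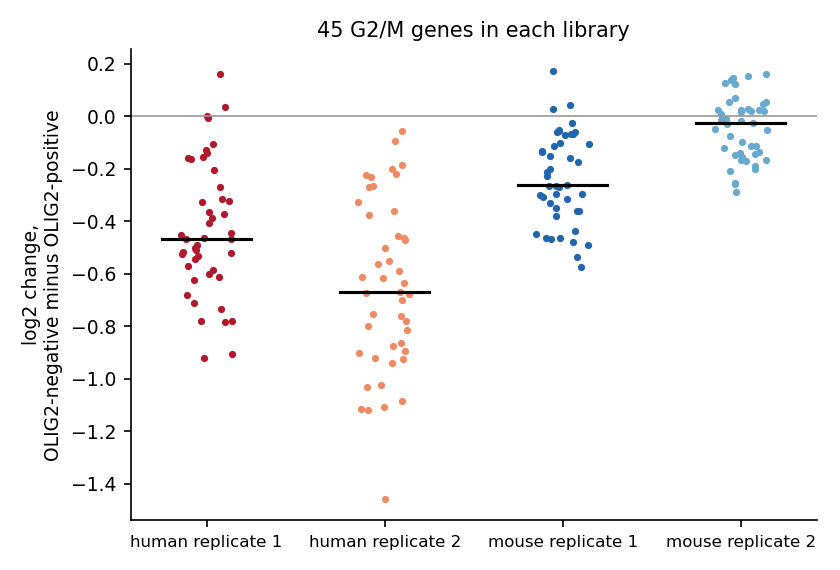
Change (log2, OLIG2-negative minus OLIG2-positive, from CPM with 2 counts added) of 45 G2/M genes in each library, 1 point per gene with a horizontal bar at the median. The medians are -0.47 and -0.67 in the human libraries and -0.26 and -0.03 in the mouse libraries.

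Of the D cyclins and CDK inhibitors, CDK6, a kinase of the G1 phase, went in opposite directions. It was at 38.1 and 60.7 CPM and at 91.8 and 137 CPM in human (-0.62 ± 0.12, edgeR adjusted p = 0.028), lower in OLIG2-negative cells. Mouse CDK6 was at 21.9 and 10.6 CPM and at 47.4 and 23.0 CPM (1.05 ± 0.12, edgeR adjusted p = 0.00022), higher in them. The difference between species passed (-1.67 ± 0.17, edgeR adjusted p = 0.00059). The human change did not pass by DESeq2 (-0.55, adjusted p = 0.16) or without human replicate 2 (edgeR adjusted p = 0.082). Nor did it without NEUROG2 cells (-0.49, edgeR adjusted p = 0.37) or after thinning (-0.58, edgeR adjusted p = 0.052). CCND2, the most abundant D cyclin in mouse, did not pass in the fit over all libraries (-0.02 ± 0.07 in human and 0.19 ± 0.06 in mouse, edgeR adjusted p = 0.97 and 0.17). The mouse change passed with mouse fitted alone (edgeR adjusted p = 0.015) and without human replicate 1 or 2 (edgeR adjusted p = 0.0044 and 0.012). It also passed without cells that held FOXA2 or SHH (0.27, edgeR adjusted p = 0.0098). After thinning both species passed as higher (0.41 in human, edgeR adjusted p = 0.019, and 0.73 in mouse, edgeR adjusted p = 1.1e-11).

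Of the factors that appear late in neural progenitors, 4 were lower in mouse OLIG2-negative cells. SOX9, which prepares gliogenesis, was at 19.3 and 42.3 CPM and at 16.3 and 51.0 CPM in mouse (-1.41 ± 0.14, edgeR adjusted p = 8.6e-05), against 33.6 and 41.5 CPM and 34.7 and 30.4 CPM in human (-0.11 ± 0.19, edgeR adjusted p = 0.89). The difference between species passed (1.30 ± 0.24, edgeR adjusted p = 0.043). Of 16 tested late temporal factors, 4 fell in mouse and 0 rose, beside 1.01% and 1.08% of all genes, and edgeR called 0 in human, with 3 at an unadjusted p under 0.05. The mouse count was 1 of 16 without mouse replicate 2 and by DESeq2, and 8 of 17 without mouse replicate 1 or human replicate 1. Beside SOX9 these were NFIA (-2.02 ± 0.33) and NFIB (-1.48 ± 0.23), factors of late progenitors and glia, and POU2F2 (-0.94 ± 0.18). NFIA was at 1.64 and 5.21 CPM and at 2.86 and 13.0 CPM in mouse. Of 25 tested radial glia genes, 2 rose and 2 fell in mouse, beside 1.08% and 1.01% of all genes. In human 2 fell, beside 0.864% of all genes. FABP7, a fatty acid binding protein of radial glia, was at 728 and 1360.4 CPM and at 724 and 1227.5 CPM (-0.83 ± 0.07, edgeR adjusted p = 4.8e-05). The intermediate filament gene NES was at 274 and 497 CPM and at 617 and 870 CPM (-0.67 ± 0.11, edgeR adjusted p = 0.027). In mouse, FABP7 was at 27.2 and 29.4 CPM and at 127 and 158 CPM (-0.24 ± 0.08, edgeR adjusted p = 0.19). On the OLIG2-negative side of mouse replicate 2, 46 of 663 cells held 90% of its 3019 UMIs. Without the cells that held FOXA2 or SHH, 491 FABP7 UMIs were left there (23.1 against 171 CPM), the mouse change was -1.88 (edgeR adjusted p = 0.58) and the human change -0.80 (edgeR adjusted p = 0.82). The human levels hardly moved without these cells, at 728 and 1360.4 CPM and at 746 and 1225.5 CPM. With all gated cells and human fitted alone, the human FABP7 change was -0.77 (edgeR adjusted p = 3.8e-15).

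Retinoic acid, WNT and BMP genes changed in small numbers. Of 16 tested retinoic acid genes, 1 rose in human, beside 0.585% of all genes, and 3 fell in mouse (1 by DESeq2), beside 1.01%. CYP26A1, which degrades retinoic acid, was at 129 and 75.5 CPM and at 285 and 126 CPM in human (0.98 ± 0.15, edgeR adjusted p = 0.016). In mouse, CYP26B1, a relative of CYP26A1, was at 3.40 and 4.40 CPM and at 9.92 and 26.5 CPM (-1.11 ± 0.25, edgeR adjusted p = 0.036), and the nuclear receptor NR2F1 was at 138 and 197 CPM and at 187 and 247 CPM (-0.44 ± 0.09, edgeR adjusted p = 0.016). Of 37 tested WNT and BMP genes, 1 was higher in human, beside 0.585% of all genes, and 3 were higher and 3 lower in mouse, beside 1.08% and 1.01%. The human one was the WNT inhibitor SFRP2 (1.02 ± 0.14, edgeR adjusted p = 0.027). In mouse, ID2, a BMP target, was at 91.7 and 57.7 CPM and at 128 and 68.6 CPM (0.79 ± 0.10, edgeR adjusted p = 0.00077). The roof plate ligand WNT1 (2.03 ± 0.33) and BMP7 (1.12 ± 0.19) rose with it, and WNT1 had 12 UMIs on the OLIG2-negative side of replicate 1 and 405 on that of replicate 2. Of 27 Notch genes, the non-canonical ligand DLK1 was higher in human (1.06 ± 0.16, edgeR adjusted p = 0.021). In mouse the ligand JAG1 was higher (1.60 ± 0.19, edgeR adjusted p = 0.00030) and the effector HEY2 lower (-1.34 ± 0.27, edgeR adjusted p = 0.017).

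Of 26 tested HOX genes, which mark position along the body axis, 0 passed in human by edgeR, with 3 at an unadjusted p under 0.05. In mouse HOXB4 (-0.43 ± 0.08) and HOXB6 (-0.44 ± 0.10) were lower, where 1.01% of all genes were lower and 1.08% higher. HOXC8 was higher (1.84 ± 0.30) at only 0.126 and 5.55 CPM in OLIG2-negative mouse cells, against 116 and 140 CPM in human. Of the 20 fibroblast growth factor and ERK genes, only FGFR3 passed, lower in mouse (-0.84 ± 0.15, edgeR adjusted p = 0.011).

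Several genes outside the lists were among the largest human changes. PCDH8, a protocadherin, was at 24.6 and 1.22 CPM in human replicate 1 and at 32.5 and 1.82 CPM in human replicate 2. It was at 6.80 and 1.62 CPM and at 4.33 and 1.66 CPM in mouse, so it was higher in OLIG2-negative cells of both species. The changes were 4.23 ± 0.35 (edgeR adjusted p = 4.8e-05) and 1.71 ± 0.32 (edgeR adjusted p = 0.012), and the difference between them did not pass (edgeR adjusted p = 0.070). Among the largest human falls were SLIT3, a guidance cue (-2.35 ± 0.45), CLRN1 (-2.57 ± 0.45), SPNS2, a lipid transporter (-2.90 ± 0.67), HSPA12A (-1.83 ± 0.32), and the neighbouring membrane protein genes TMEM176A (-1.45 ± 0.21) and TMEM176B (-2.16 ± 0.19). TMEM176B was at 20.2 and 77.0 CPM and at 21.3 and 130 CPM, and its UMIs lay in 166 of 554 and 218 of 417 human OLIG2-positive cells. Further human rises were CLDN11, a tight junction protein (2.07 ± 0.39), IGFBP3 (1.81 ± 0.37), NKD2, a WNT inhibitor (1.61 ± 0.36), PPP1R14C (1.60 ± 0.30), PDGFA, a growth factor (1.51 ± 0.30), and S100A11 (1.39 ± 0.22). The numerically largest human rise by the naming rule, STAT6 (4.88 ± 0.67), rested on 1 cell of replicate 1 that held 224 of 241 UMIs. Likewise 1 cell held 78 of the 86 PDE4DIP UMIs and 1 held 226 of the 227 IFI30 UMIs of that side.

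In mouse, the largest rises beside the domain factors were VTN, an adhesion protein of floor plate and pericytes (3.75 ± 0.34), the calcium-binding protein ANXA2 (2.94 ± 0.26), STRA8, a retinoic acid target (2.63 ± 0.34), CNN1 (2.63 ± 0.61), GFRA3 (2.29 ± 0.51) and SCUBE2. The largest falls beside OLIG1, ISL1 and LHX3 were the calcium channel subunit gene CACNA2D1 (-4.21 ± 0.31), MOBP (-3.33 ± 0.45), NMNAT2, BCL11A, BCL11B, STK32A and CNTN2. CACNA2D1 was at 1.01 and 9.49 CPM and at 1.43 and 33.2 CPM. STRA8 was at 12.2 and 0.694 CPM and at 39.7 and 8.31 CPM and had no UMI in human. VTN UMIs lay in 14 of 343 and 37 of 663 mouse OLIG2-negative cells.

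Markers of other cell types that the gate could hold were read from their summed levels. Mesenchyme and neural crest markers summed to 31.4 and 26.5 CPM, 86.2 and 62.9 CPM, 40.7 and 28.0 CPM, and 59.6 and 47.3 CPM, OLIG2-negative first. Of 8 tested, FOXD3 and TWIST1 were higher in mouse, beside 1.08% of all genes, and none passed in human. Epithelium and endoderm markers summed to 77.3 and 42.8 CPM, 82.8 and 42.7 CPM, 18.6 and 10.6 CPM, and 54.0 and 19.7 CPM. Of 5 tested, KRT18 and FOXA2 were higher in human, and KRT18 and EPCAM in mouse, beside 0.585% and 1.08% of all genes. KRT18, a partner of the gate gene KRT8, was at 62.0 and 31.8 CPM, 35.8 and 24.4 CPM, 5.16 and 1.16 CPM, and 14.1 and 3.81 CPM, higher on the OLIG2-negative side throughout. Pluripotency markers summed to at most 103 CPM on every side. By edgeR, 0 of 3 tested passed in either species, with 0 in human and 1 in mouse at an unadjusted p under 0.05. The part of these cells in the changes was not tested. Of 13 tested progenitor markers, 1 was higher and 1 lower in human, beside 0.585% and 0.864% of all genes. In mouse 1 was higher and 2 lower, beside 1.08% and 1.01%.

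The difference between the human and the mouse change was tested for each gene. It passed for 28 genes (0.252% of those tested), 14 with the human change above (0.126%) and 14 with it below the mouse change (0.126%). For IRX3 it was -0.27 ± 0.17 (edgeR adjusted p = 0.65), for PAX6 0.19 ± 0.13 (edgeR adjusted p = 0.67), for PTCH1 -0.14 ± 0.13 (edgeR adjusted p = 0.78) and for GAS1 -0.14 ± 0.22 (edgeR adjusted p = 0.91), none of which passed. ANXA2 was at 153 and 120 CPM and at 143 and 131 CPM in human against 4.03 and 0.694 CPM and 9.50 and 1.08 CPM in mouse (difference -2.67 ± 0.30, edgeR adjusted p = 0.0011). MSX1 was at 48.9 and 35.3 CPM and at 61.6 and 69.2 CPM in human, against 2.90 and 1.04 CPM and 42.8 and 9.78 CPM in mouse (difference -1.85 ± 0.28, edgeR adjusted p = 0.014). SOX21, a SOX factor that counters progenitor genes, went the other way. It was at 8.59 and 1.35 CPM and at 16.8 and 3.75 CPM in human. The mouse values were 47.5 and 51.7 CPM and 34.4 and 41.6 CPM in mouse (difference 2.56 ± 0.33, edgeR adjusted p = 0.0039). DDC, which makes dopamine and serotonin, was lower in mouse OLIG2-negative cells at 11.2 and 36.2 CPM and at 13.8 and 53.3 CPM, while its human UMIs on that side numbered 12 in 4 cells. Leaving out human replicate 1, human replicate 2, mouse replicate 1 or mouse replicate 2 in turn gave 215, 133, 128 and 52 such genes.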

How the data were processed

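Per the labels, dissociated embryoid bodies were sorted for GFP and sequenced as 10x 3' libraries. Cell Ranger 3.1.0 and the builds hg38 and mm10 come from the submitters' processing notes, while the gene annotation is not given in the sources used here. Deposited by the authors were 4 tables of raw UMI counts per gene and cell, whose libraries held 28577630, 32803173, 38166382 and 83969715 UMIs (human replicates 1 and 2, mouse replicates 1 and 2). Symbols were upper-cased, and the 15472 found in all 4 tables were used, so genes of 1 species share a row by symbol alone.

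Cells with at least 7000 UMIs, at least 500 genes and at most 10% mitochondrial UMIs were kept. The 60 barcodes shared by both species' parts of the mixed library were dropped. Other pairs of libraries shared 2 barcodes (human and mouse replicate 2) or 1 (mouse replicates), which stayed in. Scrublet (scanpy 1.11.5) called 15, 13, 6 and 15 doublets, left in except in an alternative. Counts were summed per library and side and fitted with edgeR 4.0.16 (R 4.3.3), TMM scaling, its default low-count filter, one fit over all libraries and a library block, since both sides come from the same library. Sums of the same library deviated together (r = 0.715 in human and 0.792 in mouse over 11117 genes). The 6 genes of the gate were not tested. On simulated data with 10987 genes, the fit recovered 49% of human genes changed by log2 1 and 80.6% by log2 2, 63% of mouse genes by log2 1, and 71.4% of differences of log2 2, with 25, 17 and 16 false calls. Python 3.11.15 and DESeq2 1.42.0 were also used. Intervals are exact Clopper-Pearson at 95%, a count of 0 is bounded by 3 counts, and both cover counting error only.

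The members and gene lists were chosen with earlier results of these data known. Genes are named if they are gate genes, members of the domain lists that passed or are most abundant, up to 4 passing and 2 abundant non-passing members of each other list, or among the 10 largest rises or falls of a comparison (absolute log2 change of at least 1, at least 100 UMIs, same direction in both libraries). DLL1, PAX3, EN1, EVX1, and the genes resting on 1 cell were chosen after their values were seen. Alternatives were DESeq2, its size factors in edgeR, no filter, no block, each species alone, each library left out, thinning, other OLIG2 limits, no NEUROG2 cells, no doublets and, chosen after seeing the data, no cells with FOXA2 or SHH. Some genes that the naming rule covers are not reported here.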

Additional observations from a re-analysis of the deposited data

Results flagged for a closer look

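The human change minus the mouse change (log2, OLIG2-negative minus OLIG2-positive) passed edgeR's quasi-likelihood test with Benjamini-Hochberg adjustment for 28 genes. Given here are 20 of them, which are members of the gene lists or among the largest differences by the naming rule. The human change was the lower one for ANXA2 (-2.67), TMEM176B (-2.59), MSX1 (-1.85), FOXO1 (-1.83), LINGO1 (-1.82), HOXC8 (-1.72), CDK6 (-1.67), HSPB1 (-1.54), BMP7 (-1.53), ID2 (-1.05) and FABP7 (-0.59). It was the higher one for FOXA2 (3.46), PDE4DIP (3.07), SOX21 (2.56), NKX6-2 (1.48), TMEM2 (1.44), LHFP (1.39), TPD52 (1.39), SOX9 (1.30) and P4HA1 (1.18). The adjusted p ran from 0.00059 for CDK6 to 0.049 for HOXC8. The PDE4DIP value rests on 1 cell of human replicate 1 with 78 of its 86 UMIs, and the FOXA2 value rests on human replicate 2.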

How the results depend on the processing

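The small OLIG2-negative side of human replicate 2 limits the human changes, and low genes rest on few cells. On simulated data the share of false calls was above the adjusted p limit in both species and for the difference. Against 161 human, 232 mouse and 28 difference calls by edgeR, leaving out 1 library at a time gave 255 to 339, 86 to 584 and 52 to 215. The pairing of sides within a library carries the calls: with no replicate block, 0, 0 and 0 genes passed, with 177, 169 and 112 at an unadjusted p under 0.05. Without the filter on low counts the counts were 414, 469 and 135. Fitting each species alone gave 344 human calls, DESeq2 gave 74 mouse calls, an OLIG2 limit of 4 UMIs gave 362 mouse calls, and thinning gave 88 difference calls. Leaving out NEUROG2 cells gave 43, 151 and 16 calls, and leaving out cells with FOXA2 or SHH (chosen after seeing the data) gave 416 mouse and 64 difference calls. OLIG2-positive shares after thinning were 47.0%, 52.3%, 21.0% and 20.7%, and without NEUROG2 cells 49.4% and 63.3% in human and 21.1% in mouse replicate 2. Signs turned for IFITM1 in human with 1 library left out at a time (-3.06 without human replicate 1 to 2.34 without human replicate 2). After thinning they turned for CCND2 (0.41), AURKA (0.0012), CDC20 (0.076) and TPX2 (0.039) in human and NKX6-2 (0.19) in mouse. They turned for NKX6-2 in human without NEUROG2 cells (-0.38) and for the FABP7 difference without cells with FOXA2 or SHH (1.08). The cause was not tested.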
